A study of Mus musculus with 31 samples.

Results

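The genes described here are 10 transcripts of the integrated stress response and its secreted hormones: the transcription factor genes Atf4, Atf3 and Ddit3, the feedback gene Trib3, the target genes Asns, Psat1, Chac1 and Sesn2, and the hormone genes Fgf21 and Gdf15. They were taken from a fixed list of ATF4-type genes with both hormones, were found by symbol among 35275 gene identifiers in the count table of the insulin experiment and 54532 in that of the ERRα3SA experiment, and all 10 were present in both tables. The study asked how insulin acts on transcription in liver and muscle through the orphan nuclear receptor ERRα, encoded by Esrra, and RNA was sequenced from 31 samples in 8 groups of male C57BL/6N mice aged 2 to 3 months on a standard diet. In the insulin experiment, WT littermates and whole-body ERRα KO mice were fasted for 12 h, given saline or 1 unit/kg insulin into the peritoneum, and their livers were collected 4 h later from 4 WT mice on saline, 4 WT mice on insulin, 4 KO mice on saline and 3 KO mice on insulin. In the other experiment, no fast or injection is described, and liver and hindlimb muscle (gastrocnemius and soleus) came from 4 WT mice and 4 ERRα3SA mice for each tissue, and since it is not stated whether both tissues came from the same mice, they were tested as independent. ERRα3SA mice carry a knock-in made by genome editing that replaces 3 serines of ERRα by alanines, and so have the mutant receptor in all cells. Counts summed to between 35871419 and 48317108 per sample in the insulin experiment and between 20481405 and 33412022 in the ERRα3SA experiment.

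The integrated stress response starts when a kinase phosphorylates the translation factor eIF2α, which slows most protein synthesis while the mRNA of the transcription factor ATF4 is translated more. ATF4, with partners of the bZIP and C/EBP families, raises genes for amino acid synthesis and transport, and later ATF3, CHOP (the product of Ddit3) and the pseudokinase TRIB3 adjust or restrain the response. In liver the same response raises FGF21, a fasting hormone that also depends on PPARα, and GDF15, a hormone read by the brainstem receptor GFRAL, and since ATF4 is controlled mainly at translation, the mRNA levels given here do not measure its protein.

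Promoter windows of 250 bases before each RefSeq start (GRCm38.p6) were searched on both strands for the core of the C/EBP-ATF response element, TGATGNAA, the site type through which ATF4 acts with C/EBP partners. All 10 genes matched by symbol, with 12 windows, and 4 of the windows held the core, those of Atf3, Asns, Chac1 and Fgf21, against 3.45% of 32851 promoter windows of the same length. Neither the cAMP response element TGACGTCA nor the ERR response element TNAAGGTCA was found in these 12 windows, with shares of 1.55% and 1.14% over all promoters. The 4 matches are shown because they are the only windows of the list with the core, and Sesn2, which is called in several comparisons below, has none. Capitals mark the match, which reads as the core itself on the gene's strand in Asns and as its reverse complement in the others. Each sequence is written 5′ to 3′ on the strand of its gene, at chr1:191183406-191183473 on the minus strand for Atf3, chr6:7693215-7693242 on the minus strand for Asns, chr2:119351019-119351086 on the plus strand for Chac1 and chr7:45615592-45615659 on the minus strand for Fgf21. The Atf3 and Asns stretches lie before a RefSeq start but inside the genes as annotated by GENCODE vM21, which extend to 191218039 and 7693254. The Asns match is 23 bases before its RefSeq start, and shorter flanks are shown because wider ones touched an annotated exon. A match describes the letters of a window and does not show that a factor binds there.
Atf3: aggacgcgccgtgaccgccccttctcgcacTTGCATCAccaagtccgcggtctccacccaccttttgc
Asns: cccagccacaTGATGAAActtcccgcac
Chac1: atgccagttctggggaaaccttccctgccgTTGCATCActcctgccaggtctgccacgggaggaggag
Fgf21: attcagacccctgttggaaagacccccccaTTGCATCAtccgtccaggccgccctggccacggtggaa

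Levels below are CPM, counts scaled to a common library size after TMM normalization of each table on its own. Esrra was at 32.3, 51.3, 42.7 and 40.5 CPM in WT livers on saline and at 53.7, 96.5, 56.1 and 59.0 CPM in WT livers on insulin, in the order of replicates 1 to 4. These WT groups did not overlap, with a log2 fold change on insulin of 0.67 (SE 0.21, edgeR adjusted p = 0.1215). Esrra was at 1.63, 0.703, 1.15 and 1.04 CPM in KO livers on saline and at 0.833, 0.576 and 0.298 CPM in KO livers on insulin (replicates 1, 2 and 4). Every KO liver lay below every WT liver, as labelled. The labelled tissues also held their markers, since 5 hepatocyte markers summed to 77484 to 99919 CPM over the livers of the insulin experiment and 56582 to 104210 CPM over those of the ERRα3SA experiment, against 8.09 to 18.7 CPM in muscle. The 6 skeletal muscle markers summed to 80188 to 179300 CPM in muscle and to at most 105 CPM in any liver (WT insulin replicate 3).

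Some samples stood apart before any comparison was made. Replicate 1 of ERRα3SA muscle had 19.3% of its counts on genes of the mitochondrial genome, against 9.15% to 10.8% in the other 7 muscles, and detected 16984 genes against 19794 to 20878. Its levels of Chac1 (1.13 CPM), Atf4 (77.0 CPM), Ddit3 (4.61 CPM) and Sesn2 (1.29 CPM) were the lowest of the 8 muscles. Replicate 4 of ERRα3SA muscle was the highest of the 8 muscles in Atf3, Atf4, Psat1, Asns and Sesn2. Among livers, KO saline replicate 3 had the highest Ddit3, Trib3, Psat1 and Gdf15 of the insulin experiment. WT insulin replicate 2 had 1.88% of its counts on mitochondrial genes, against 3.14% to 4.82% in the other 14 livers of that experiment, and the fewest genes detected of them, 14507. In ERRα3SA liver replicate 1, 6 exocrine pancreas markers summed to 597 CPM, against 24.8 to 153 CPM in the other 7 livers of that experiment, and Gdf15 was the highest of the 8. ERRα3SA liver replicate 4 had a hepatocyte marker sum of 56582 CPM, against 85481 to 104210 CPM in the other 7. Its immune and Kupffer markers summed to 296 CPM against 183 to 235 CPM. For the genes of the list, called results that rest on a sample named here are given with and without it. Calls named below for other genes, Ddit4 among them, are given only with all samples included. In whole tissue, a lower level through fewer cells of a type and through less RNA per cell cannot be told apart.

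**Figure D1:**
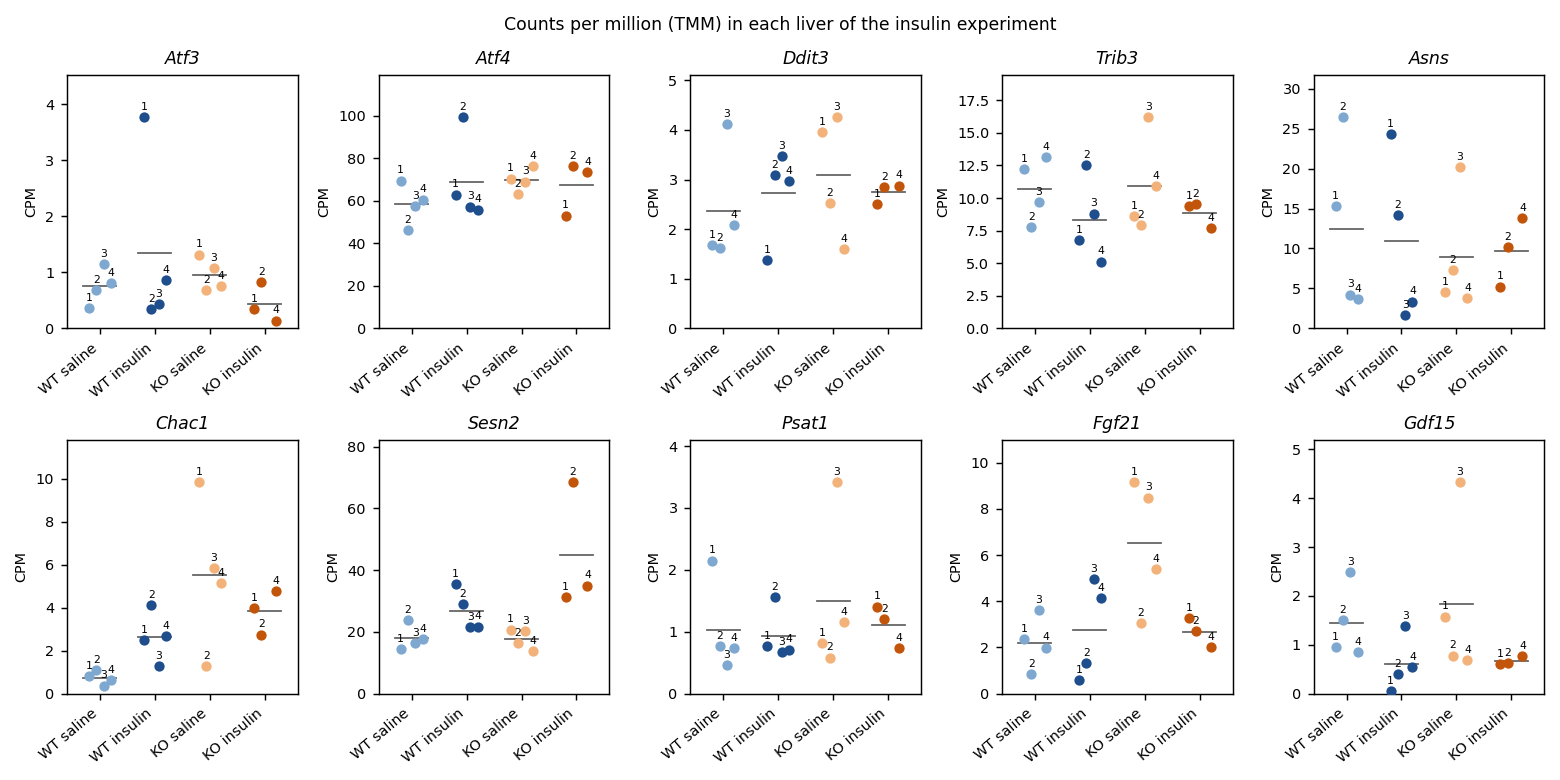
Level in CPM of each of the 10 genes (1 panel per gene, axis from 0) in the 15 livers of the insulin experiment, by genotype and injection; dots are samples with their replicate number and bars are group means. Chac1 is lowest in the 4 WT livers on saline. By group mean, Fgf21 is highest in KO livers on saline and Sesn2 in KO livers on insulin, with samples that overlap those of WT groups.

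In WT mice of the ERRα3SA experiment, Atf4 had the most reads per length of the 10 genes in liver and in muscle, and the others differed in order between the tissues. Per kilobase of exon, Atf4 was at 73.4 ± 10.5 CPM in liver (SD, n = 4) and 83.6 ± 3.64 CPM in muscle. In liver Ddit3 followed at 5.10 ± 1.12 CPM per kilobase, and Chac1, Sesn2, Trib3, Gdf15 and Asns lay between 2.11 and 2.89 CPM per kilobase, with SDs of 0.422 to 1.02. Fgf21 (1.22 ± 0.693), Atf3 (0.571 ± 0.152) and Psat1 (0.165 ± 0.0961) were lower in liver on that scale. In muscle Chac1 was second at 33.1 ± 15.2 CPM per kilobase, before Ddit3 (12.2 ± 1.01) and Atf3 (3.43 ± 1.53). Sesn2 (0.852 ± 0.0882) and Psat1 (0.838 ± 0.106) did not differ beyond their spread in muscle, nor did Asns (0.488 ± 0.129) and Trib3 (0.440 ± 0.251), and Gdf15 was at 0.104 ± 0.0968 CPM per kilobase. In fasted WT livers on saline, normalized in the other table and so set beside these values without a test, Atf4 was at 33.9 ± 5.55 CPM per kilobase, Asns, Trib3 and Sesn2 lay between 5.17 and 5.75, and Chac1 was at 0.442 ± 0.189.

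Of the 10 genes, 9 differed between WT liver and WT muscle by the unadjusted criterion, a p below 0.05 before adjustment with a change of 1.2-fold or more. The study set these thresholds on DESeq2 results, and they are applied here to edgeR. The criterion was met by 84.2% of the 14886 genes tested. All 10 genes had an adjusted p under 0.05, as did 86.5% of genes. The count is therefore close to that of the tissue difference at large, and the directions within the list are what it adds. Liver had more of both hormones and of the target and feedback genes Trib3 (log2 fold change of liver over muscle 2.45, SE 0.37, edgeR adjusted p = 2.70e-05), Asns (2.05, SE 0.32, adjusted p = 3.19e-05) and Sesn2 (1.59, SE 0.15, adjusted p = 1.87e-07). Muscle had more of the factors Atf3 (-2.59, SE 0.30, adjusted p = 1.62e-06) and Ddit3 (-1.29, SE 0.15, adjusted p = 1.83e-06), of the serine synthesis enzyme gene Psat1 (-2.36, SE 0.33, adjusted p = 1.20e-05) and of Chac1 (-3.55, SE 0.29, adjusted p = 4.41e-08), whose product degrades glutathione. The groups did not overlap for 9 of the 10 genes, all but Atf4, as for 82.9% of genes. Atf4 differed by -0.22 (SE 0.08, adjusted p = 0.0244), less than the fold criterion.

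Fgf21 was not detected in muscle, with 0 counts in all 8 samples, and was at 1.12, 0.991, 0.472 and 2.05 CPM in the WT livers. Against a floor of 3 counts per library (0.113 CPM on average), liver was at least 10.2-fold higher. Gdf15 had 12, 3, 0 and 6 counts in the WT muscles and 130, 95, 120 and 121 counts in the WT livers, with a log2 fold change of 4.48 (SE 0.40, edgeR adjusted p = 1.04e-07). The genes that read the hormones followed different patterns: Klb, the co-receptor of FGF21, was at 38.9, 45.5, 39.9 and 27.5 CPM in WT liver and at 0.281, 0.395, 0.531 and 0.382 CPM in WT muscle, while Fgfr1 was at 5.47 to 6.70 CPM in WT liver and 72.4 to 86.0 CPM in WT muscle. Gfral had 0 CPM in all 31 samples.

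Insulin was followed in WT livers by higher Chac1 and Sesn2 at 4 h, while Atf4 and the other genes of the list met neither criterion. Chac1 was at 0.803, 1.10, 0.366 and 0.624 CPM in WT livers on saline (16 to 40 counts). It was at 2.47, 4.11, 1.27 and 2.68 CPM in WT livers on insulin. All 4 livers on insulin lay above all 4 on saline, with a log2 fold change of 1.87 (SE 0.46, edgeR adjusted p = 0.0531), which was 1.57 (adjusted p = 0.117) without insulin replicate 2. Sesn2, a stress-induced gene whose product restrains mTORC1, was at 14.3, 23.7, 16.3 and 17.6 CPM on saline. On insulin it was at 35.4, 28.9, 21.6 and 21.7 CPM, a log2 fold change of 0.58 (SE 0.20, adjusted p = 0.163). The Sesn2 groups overlapped through saline replicate 2, and the call by the unadjusted criterion was lost without saline replicate 1 (0.49). These 2 of 10 genes compare with 17.2% of the 13463 genes tested that met the criterion. None of the 10 had an adjusted p under 0.05 by edgeR, against 3.16% of all genes, while DESeq2 gave 1 of the 10 and 4.43% of all genes. That gene was Chac1, with an adjusted p of 0.00214, in a range of 0.00214 to 0.0529 over the alternatives to the main test. Chac1 was the only gene of the list whose groups did not overlap, as for 12.4% of genes.

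Markers of other cells also differed between these WT livers. All 5 exocrine pancreas markers tested had negative changes on insulin, with a median of -3.16, and 2 were called lower. Over 6 markers the sums were 995, 47.4, 4.05 and 1368 CPM on saline and 14.1, 93.4, 6.77 and 170 CPM on insulin. Of 5 stellate and fibroblast markers, 2 had positive changes and 2 were called lower, Lrat without overlap (-0.88, edgeR adjusted p = 0.0339) and Col3a1 with overlap (-0.68, adjusted p = 0.254). Their sums overlapped, at 114 to 134 CPM on saline and 105 to 136 CPM on insulin. Of 4 endothelial markers, 1 had a positive change and 1 was called lower, Kdr, with overlap (-0.60, adjusted p = 0.186). The muscle marker Acta1 was called higher, with overlap (5.15, adjusted p = 0.171). The part of these transcripts in the levels of Chac1 and Sesn2 was not tested.

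The other 8 genes in WT livers had log2 fold changes on insulin from -1.28 to 0.84. The lowest was that of Gdf15, at 0.958, 1.51, 2.49 and 0.855 CPM on saline and 0.0531, 0.397, 1.39 and 0.546 CPM on insulin (SE 0.73, adjusted p = 0.397). Replicate 1 on insulin, with 2 counts, was the lowest and the groups overlapped. The highest was that of Atf3 (SE 0.74, adjusted p = 0.611), where insulin replicate 1 at 3.77 CPM stood above the other 3 at 0.340 to 0.854 CPM. Atf4 was at 69.5, 46.2, 57.7 and 60.6 CPM on saline and 62.9, 99.5, 57.3 and 55.9 CPM on insulin (0.24, SE 0.20, adjusted p = 0.586), and its groups overlapped. Asns split both groups in the same way, at 15.3 and 26.5 CPM against 4.23 and 3.68 CPM on saline and at 24.3 and 14.2 CPM against 1.60 and 3.34 CPM on insulin, with replicates 1 and 2 high each time.

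In KO livers insulin was followed by higher Sesn2 and lower Fgf21 and Gdf15. Sesn2 was at 20.7, 16.4, 20.3 and 13.7 CPM in KO livers on saline and at 31.3, 68.5 and 35.0 CPM on insulin. All 3 livers on insulin lay above all 4 on saline, with a log2 fold change of 1.33 (SE 0.25, edgeR adjusted p = 0.0240). Without insulin replicate 2, the highest, the change was 0.90 (adjusted p = 0.0936), and it still met the unadjusted criterion. That liver also had higher sums than the other KO livers on insulin in immediate early genes (582 CPM against 276 and 232 CPM) and p53 target genes (996 against 445 and 623 CPM). Its erythroid markers summed to 432 CPM against 234 and 172 CPM, and the part of these transcripts in Sesn2 was not tested. Fgf21 was at 9.16, 3.06, 8.49 and 5.39 CPM on saline and at 3.25, 2.69 and 2.01 CPM on insulin. The groups overlapped through saline replicate 2, and the log2 fold change was -1.30 (SE 0.36, adjusted p = 0.0870). Gdf15 was at 1.57, 0.776, 4.33 and 0.687 CPM on saline and at 0.599, 0.631 and 0.760 CPM on insulin. Its change of -1.48 (SE 0.64, adjusted p = 0.264) became -0.61 without saline replicate 3, the highest sample, and the call was lost in 5 of 7 refits that each left a sample out. Gdf15 was not called with all 4 groups of the table fitted together (-1.47) nor with a replicate block (-0.52). These 3 of 10 genes compare with 17.2% of the 13684 genes tested that met the unadjusted criterion, and by edgeR Sesn2 alone had an adjusted p under 0.05, as did 2.91% of genes. DESeq2 gave 2 of the 10 and 4.83% of all genes. These were Sesn2, with an adjusted p of 8.04e-06, and Fgf21, with 0.00752 in a range of 0.00752 to 0.328 over the alternatives to the main test. Sesn2 was also the only 1 of the 10 with groups that did not overlap, as for 17.6% of genes. Chac1 met neither criterion in KO livers (-0.53, SE 0.50, adjusted p = 0.648). All 5 exocrine pancreas markers tested were also called lower on insulin in KO livers, with a median of -5.36. Their sums, over 6 markers, were 244, 27.4, 4.13 and 115 CPM on saline and 9.26, 5.68 and 6.27 CPM on insulin, and their part in the levels of Fgf21 and Gdf15 was not tested.

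**Figure D2:**
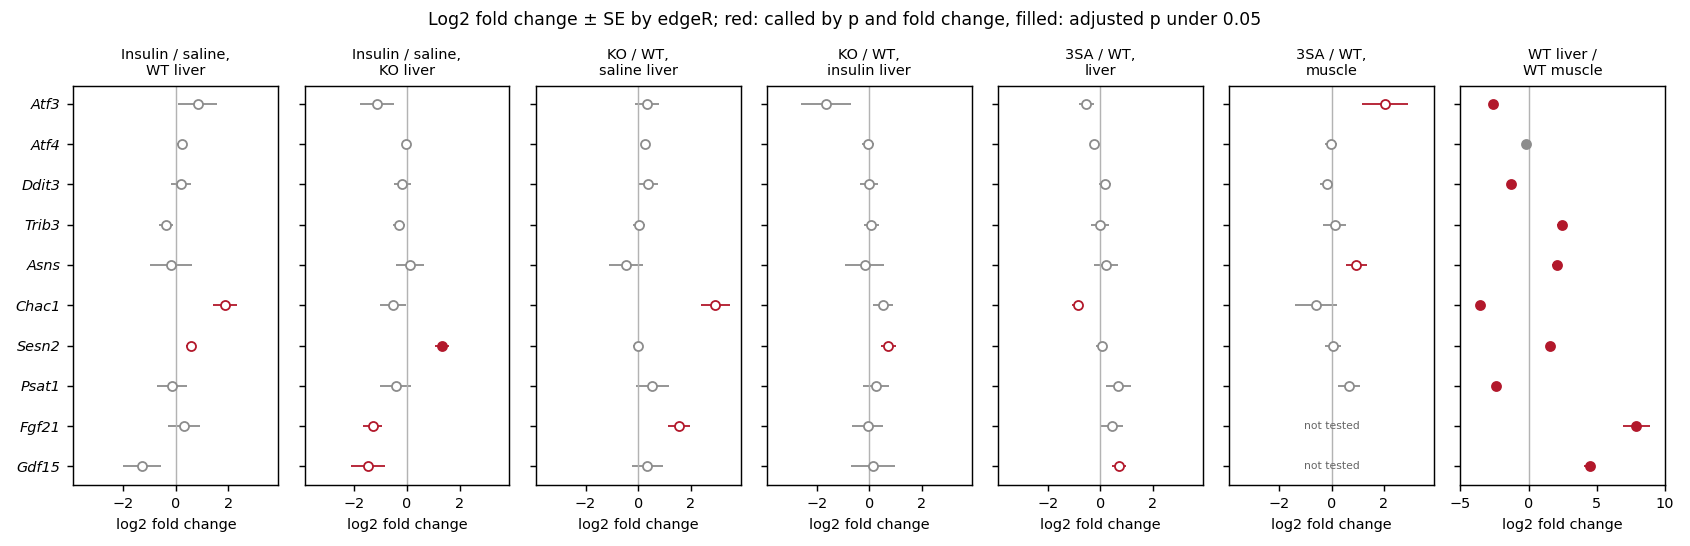
Log2 fold change with its standard error for each of the 10 genes in 7 comparisons, from edgeR; red marks genes that meet the unadjusted criterion, and filled symbols an adjusted p under 0.05. Outside the comparison of tissues, Sesn2 in KO livers given insulin is the only filled symbol, and Chac1 in KO livers on saline has the largest change, 2.94.

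Without ERRα, fasted livers on saline had more Chac1 and more Fgf21. Chac1 in KO livers on saline was at 9.84, 1.29, 5.83 and 5.14 CPM, against the 0.366 to 1.10 CPM of WT livers on saline. Every KO liver lay above every WT liver, although KO replicate 2 only slightly so, and the log2 fold change was 2.94 (SE 0.55, edgeR adjusted p = 0.105). Without KO replicate 2 the adjusted p was 0.0166. In the other 7 of the 8 refits that each left a sample out, 0 genes of the list passed the adjusted threshold. Fgf21 was at 2.36, 0.852, 3.61 and 1.99 CPM in the WT livers on saline, below 3 of the 4 KO livers, with WT replicate 3 above KO replicate 2. Its log2 fold change was 1.56 (SE 0.43, adjusted p = 0.214). By DESeq2 both genes had an adjusted p under 0.05, as did 1.06% of all genes, 1.82e-06 for Chac1 and 0.0137 for Fgf21, with ranges over the alternatives to the main test of 1.82e-06 to 0.167 and 0.0137 to 0.310. These 2 of 10 genes compare with 11.3% of the 13481 genes tested that met the unadjusted criterion, and none of the 10 passed the adjusted threshold by edgeR, as 0.0816% of genes did. Chac1 alone had groups that did not overlap, as for 7.10% of genes.

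Exocrine pancreas transcripts were present in some of these livers and are given beside Chac1 and Fgf21. Their 6 markers summed to 995, 47.4, 4.05 and 1368 CPM in the WT livers on saline and to 244, 27.4, 4.13 and 115 CPM in the KO livers on saline. The most abundant of them was Ctrb1 in WT replicates 1 and 4 (302 and 384 CPM) and in KO replicates 1 and 4 (75.6 and 32.7 CPM). Of the 6 markers, 1 to 5 had 0 counts in each of these livers. All 5 tested had negative changes in KO livers, with a median of -2.63, and 0 were called. Markers of other cells were called lower in KO livers on saline: Alas2, of 4 erythroid markers that all had negative changes, with no overlap (-0.67, adjusted p = 0.155), and Adgre1 (-0.76, adjusted p = 0.322), Col1a1 (-0.74, adjusted p = 0.322) and Kdr (-0.43, adjusted p = 0.374) with overlap. Positive changes were seen in 2 of 5 immune and Kupffer, 2 of 5 stellate and fibroblast and 1 of 4 endothelial markers tested. The part of all these transcripts in the levels of Chac1 and Fgf21 was not tested.

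Among the other genes, KO livers on saline had log2 fold changes from -0.47 (Asns, SE 0.66) to 0.54 (Psat1, SE 0.63). Atf4 was at 70.4, 63.1, 69.0 and 76.4 CPM in KO livers, a change of 0.25 (SE 0.13, adjusted p = 0.456) with overlapping groups. Trib3 was at 8.63, 7.93, 16.2 and 10.9 CPM in KO livers and 12.2, 7.78, 9.71 and 13.1 CPM in WT livers, a change of 0.03 (SE 0.24, adjusted p = 0.979).

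On insulin, KO and WT livers differed in Sesn2 alone by the unadjusted criterion, with a log2 fold change of 0.73 (SE 0.28, edgeR adjusted p = 0.402). The 31.3, 68.5 and 35.0 CPM of the KO livers overlapped with the WT livers, whose replicate 1 was at 35.4 CPM, and the call was lost without KO replicate 2 (0.30) and without WT replicate 3 or 4. This 1 of 10 genes compares with 9.99% of 13665 genes tested, and none of the 10 passed the adjusted threshold, against 0.0585% of genes. Chac1 was at 3.98, 2.74 and 4.78 CPM in KO livers on insulin, overlapping with the 1.27 to 4.11 CPM in WT livers on insulin (0.53, SE 0.38, adjusted p = 0.690). Fgf21 on insulin was at 2.01 to 3.25 CPM in KO livers and 0.584 to 4.97 CPM in WT livers (-0.06, SE 0.60, adjusted p = 0.982). All 5 exocrine pancreas markers tested were called lower in KO livers on insulin, with a median of -5.07. Of 4 endothelial markers, all with positive changes, Cdh5 was called higher with no overlap (0.41, edgeR adjusted p = 0.495). The 5 skeletal muscle markers tested all had negative changes, and Myh4 was called lower, with overlap (-4.75, edgeR adjusted p = 0.462). The part of these transcripts in the level of Sesn2 was not tested.

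The difference between the insulin effects of WT and KO livers was tested as an interaction. For Chac1 the effect was larger in WT livers by 2.39 on the log2 scale (SE 0.72, edgeR adjusted p = 0.423), and for Sesn2 it was smaller in WT livers, -0.76 (SE 0.35, adjusted p = 0.557). These 2 of 10 genes met the unadjusted criterion, as did 8.79% of the 14670 genes tested, and edgeR gave 0 genes of the list and 0% of all genes with an adjusted p under 0.05 (DESeq2 gave 20 genes, none of them in the list). The Sesn2 call was lost without KO insulin replicate 2 (-0.32), without 7 other samples left out in turn and with a replicate block (-0.68). For Fgf21, which met the criterion in KO livers only, the difference of the effects was 1.62 (SE 0.79, adjusted p = 0.586). Its insulin effect in KO livers and its KO effect on saline share the KO saline livers and are not independent. Mean Fgf21 was 6.52 CPM there, against 2.20 in WT livers on saline, 2.75 in WT livers on insulin and 2.65 in KO livers on insulin. The WT saline livers enter the insulin effect in WT, the KO effect on saline and the interaction alike, so the low Chac1 of that group, 0.723 ± 0.309 CPM (SD, n = 4) against 2.63 ± 1.17 on insulin, 5.53 ± 3.50 in KO livers on saline and 3.83 ± 1.02 in KO livers on insulin (n = 3), is shared by these results.

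**Figure D3:**
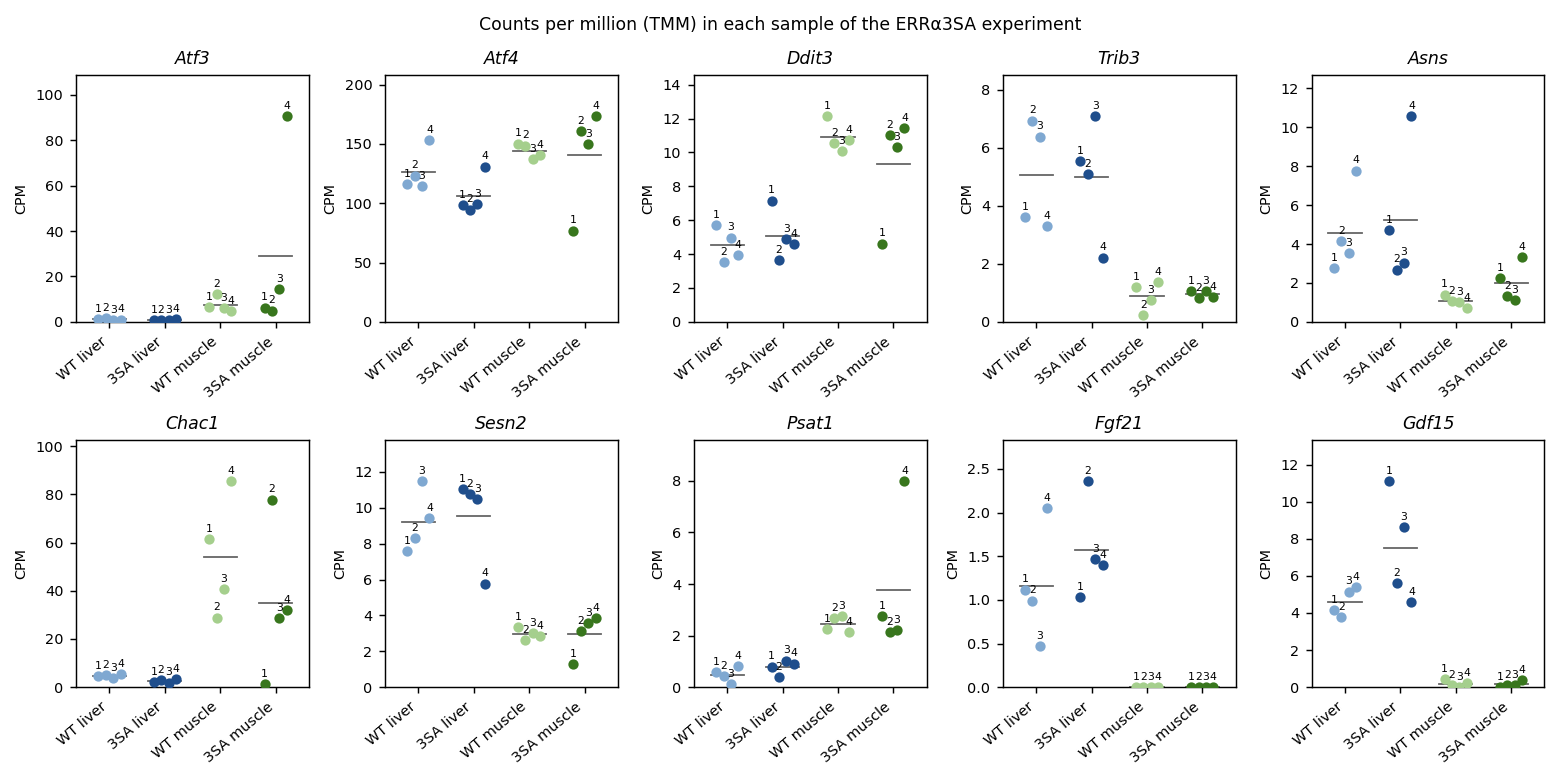
Level in CPM of each of the 10 genes (1 panel per gene, axis from 0) in the 16 samples of the ERRα3SA experiment, by tissue and genotype; dots are samples with their replicate number and bars are group means. Chac1 is lower in all 4 ERRα3SA livers than in the WT livers, and Atf3 is high in ERRα3SA muscle replicate 4.

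In ERRα3SA livers Chac1 was lower and Gdf15 higher than in WT littermates. Chac1 was at 4.53, 5.11, 3.69 and 5.58 CPM in WT livers and at 2.17, 2.97, 1.86 and 3.37 CPM in ERRα3SA livers. All 4 ERRα3SA livers lay below all 4 WT livers, with a log2 fold change of -0.86 (SE 0.21, edgeR adjusted p = 0.528). With all 4 groups of the table fitted together, neither Chac1 (-0.86) nor Gdf15 (0.70) was called. Gdf15 was at 4.15, 3.77, 5.15 and 5.40 CPM in WT livers and at 11.1, 5.62, 8.63 and 4.57 CPM in ERRα3SA livers. Of the ERRα3SA livers, 3 lay above all WT livers and replicate 4 lay among them, with a log2 fold change of 0.70 (SE 0.26, adjusted p = 0.629). The Gdf15 call was lost without ERRα3SA replicate 1 (0.45), and also without ERRα3SA replicate 3 or WT replicate 1 or 2. The part of the exocrine pancreas transcripts of ERRα3SA replicate 1 in its Gdf15 was not tested. These 2 of 10 genes compare with 4.88% of the 13339 genes tested that met the unadjusted criterion. By edgeR, 0 of the 10 genes and 0% of all genes had an adjusted p under 0.05, while DESeq2 gave 36 genes and none of the 10. Chac1 alone had groups that did not overlap, as for 4.93% of genes. Of 4 cholangiocyte markers, 3 were called lower in the same comparison: Krt19 (-1.14, adjusted p = 0.493) and Epcam (-0.93, adjusted p = 0.528) with no overlap, and Krt7 (-1.11, adjusted p = 0.564) with overlap. The other, Sox9, the most abundant, was not called (0.38). The 4 markers summed to 12.6, 9.83, 12.1 and 14.5 CPM in WT livers and 12.7, 8.78, 10.6 and 14.4 CPM in ERRα3SA livers, and their part in the level of Chac1 was not tested.

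The factors and the other targets in ERRα3SA livers had log2 fold changes from -0.53 (Atf3, SE 0.27) to 0.68 (Psat1, SE 0.47, on 3 to 21 counts per sample). Atf4 was at 116, 123, 114 and 153 CPM in WT livers and 98.7, 94.7, 99.5 and 131 CPM in ERRα3SA livers (-0.25, SE 0.13, adjusted p = 0.713). Replicate 4 was the highest of its genotype in each case and made the groups overlap, and without ERRα3SA replicate 4 the change was -0.37 and met the unadjusted criterion. That ERRα3SA liver stood apart in its hepatocyte and immune markers, as given above. Fgf21 was at 1.04, 2.36, 1.47 and 1.40 CPM in ERRα3SA livers, overlapping with the 0.472 to 2.05 CPM in WT livers, although replicate 2 lay above them (0.44, SE 0.41, adjusted p = 0.823). Esrra itself was at 27.1 to 29.5 CPM in WT livers and 19.2 to 29.4 CPM in ERRα3SA livers and met neither criterion. In muscle, where it also met neither, it was at 67.0 to 90.3 CPM in WT samples. In ERRα3SA muscle it was at 24.3 CPM in replicate 1 and at 133, 127 and 94.6 CPM in replicates 2 to 4.

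In ERRα3SA muscle, Atf3 and Asns met the unadjusted criterion, and both rested largely on replicate 4. Atf3 was at 6.43, 12.2, 6.22 and 4.70 CPM in WT muscle and at 6.25, 4.99, 14.5 and 90.8 CPM in ERRα3SA muscle. Replicate 4 stood far above the other 7 samples, which overlapped, and the log2 fold change of 2.03 (SE 0.87, edgeR adjusted p = 1.00) became 0.24 without it and 2.39 without replicate 1, and the call was also lost without WT replicate 1, 3 or 4. Asns, which encodes asparagine synthetase, was at 1.41, 1.07, 1.02 and 0.726 CPM in WT muscle and at 2.25, 1.32, 1.10 and 3.33 CPM in ERRα3SA muscle. Its groups overlapped, and its change of 0.95 (SE 0.40, adjusted p = 1.00) became 0.55 without replicate 4 and 0.91 without replicate 1, no longer called in either case nor without WT replicate 2, 3 or 4. With a replicate block neither Atf3 (0.94) nor Asns (0.84) was called, and with all 4 groups of the table fitted together Asns (0.91) was not. Of the 10 genes 8 were tested in muscle, since Fgf21 and Gdf15 did not pass the filter on low counts, and 2 were called, against 4.54% of the 14081 genes tested. By edgeR 0 of the 8 genes and 0% of all genes had an adjusted p under 0.05, while DESeq2 gave 41 genes and none of the 8. Without replicate 1, 464 genes had an adjusted p under 0.05, none of them in the list.

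Replicate 4 of ERRα3SA muscle was also high in other transcripts. Its 7 immune and Kupffer cell markers summed to 274 CPM, against 49.7 to 54.2 CPM in the other ERRα3SA muscles and 61.1 to 76.3 CPM in WT muscle, with Lyz2 the most abundant at 220 CPM. Its stellate and fibroblast markers summed to 5658 CPM against 3973 to 4507 CPM in the other 7 muscles, and its erythroid markers to 149 CPM against 73.4 to 114 CPM. Its adipocyte markers, at 15.7 CPM against 40.4 to 48.9 CPM in the other ERRα3SA muscles, and its skeletal muscle markers, at 80188 CPM against 102940 to 179300 CPM in the other 7, were the lowest of the 8. Fos, an immediate early gene, was at 71.2 CPM there and at 5.73 to 27.6 CPM in the other 7 muscles, and the 12 immediate early genes summed to 476 CPM against 179 to 300 CPM. Of the 7 immune markers, 1 had 0 counts in replicate 4. The part of these transcripts in the levels of Atf3 and Asns was not tested.

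Chac1, the gene of the list with the highest level per length in muscle after Atf4, was at 61.6, 28.8, 40.7 and 85.5 CPM in WT muscle and at 1.13, 77.9, 28.6 and 31.9 CPM in ERRα3SA muscle. Replicate 1 was far below the others and the remaining 7 overlapped (-0.61, SE 0.80, adjusted p = 1.00), and without replicate 1 the change was -0.20 (adjusted p = 0.796). The ERRα3SA effect was compared between the tissues as an interaction, muscle minus liver, in which Atf3 was the 1 of 10 genes to meet the unadjusted criterion (2.53, SE 1.10, adjusted p = 0.858), against 5.57% of the 15688 genes tested. The call was lost in 7 of 16 refits that each left a sample out, with the lowest difference, 0.78, without ERRα3SA muscle replicate 4, and it was lost with a replicate block (1.97). By edgeR 0% of genes had an adjusted p under 0.05 for this difference, with 23 genes by DESeq2 and none of them in the list.

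Other genes of the pathway were read from 9 lists fixed with the comparisons. These lists were chosen with earlier results of these data known, so the shares called describe them and are no test against all genes. On insulin, 26 of the 87 genes tested in these lists were called in WT livers (29.9%), against 17.2% of all genes. In KO livers 18 of 86 were called (20.9%), also against 17.2% of all genes. Ddit4, another restraint on mTORC1, was higher on insulin in WT livers by 2.79 on the log2 scale (SE 0.77, edgeR adjusted p = 0.0820), from 6.27, 27.1, 11.0 and 5.50 CPM to 60.0, 231, 17.8 and 33.9 CPM. In KO livers Ddit4 rose by 2.32 (adjusted p = 0.0190), from 45.9, 17.7, 46.9 and 29.8 CPM to 152, 296 and 78.6 CPM. The KO groups did not overlap, and the WT groups overlapped through saline replicate 2. Insulin replicate 2, which stood apart as described above, was the highest WT liver at 231 CPM, and the WT change is given only with it included. Among 10 bZIP partners and feedback factors, 4 were called higher and 1 lower in WT livers, and 2 higher and 0 lower in KO livers. Of the serine, glycine and one-carbon enzymes, 3 of 12 tested were called higher and 1 lower in WT livers, led by Got1 (1.59, adjusted p = 0.0106), and 2 of 11 higher in KO livers, again led by Got1 (1.67, adjusted p = 0.0354). Of 12 aminoacyl-tRNA synthetases, 2 were called higher in WT livers and 1 higher and 1 lower in KO livers, with Eprs called in both (0.47, adjusted p = 0.153, and 0.65, adjusted p = 0.0464).

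Of 8 genes for eIF2α, its kinases and its phosphatase subunits, 2 were called higher and 1 lower on insulin in WT livers, and 1 higher and 1 lower in KO livers, all 5 without overlap. Of all genes tested, 17.2% were called in each genotype, and groups did not overlap for 12.4% in WT livers and 17.6% in KO livers. Ppp1r15a, which encodes GADD34, was higher by 0.51 (adjusted p = 0.200) in WT livers and 0.57 (adjusted p = 0.0688) in KO livers. Eif2s1 was higher (0.41, adjusted p = 0.142) and Ppp1r15b lower (-0.34, adjusted p = 0.177) in WT livers, and the kinase gene Eif2ak3 was lower in KO livers (-0.71, adjusted p = 0.143). Of 8 amino acid transporters tested, 1 was called higher and 1 lower in WT livers, and in KO livers Slc1a4 alone was called (-1.04, adjusted p = 0.0395). Of 5 FGF and GDF15 receptor genes tested, 0 were called higher and 2 lower in WT livers, Fgfr3 (-0.75, adjusted p = 0.0208) and Fgfr2 (-0.61, adjusted p = 0.210). In KO livers 1 was called higher, Fgfr1 (1.02, adjusted p = 0.108), and 2 lower, Fgfr2 (-0.85, adjusted p = 0.0232) and Klb (-0.39, adjusted p = 0.279). Of 14 PPARα-responsive fasting genes, 2 were called higher in WT livers, Pdk4 (2.54, adjusted p = 0.0150) and Angptl4 (0.88, adjusted p = 0.0226), and 3 higher and 1 lower in KO livers. Of 9 p53 target genes, 3 were called higher and 1 lower in WT livers, led by Cdkn1a (3.41, adjusted p = 0.00280), and 1 higher and 1 lower in KO livers. Of 10 immediate early genes tested, 2 were called higher in WT livers, Fos (2.27, adjusted p = 0.0343) and Klf6 (0.96, adjusted p = 0.0179), and 0 in KO livers.

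**Figure D4:**
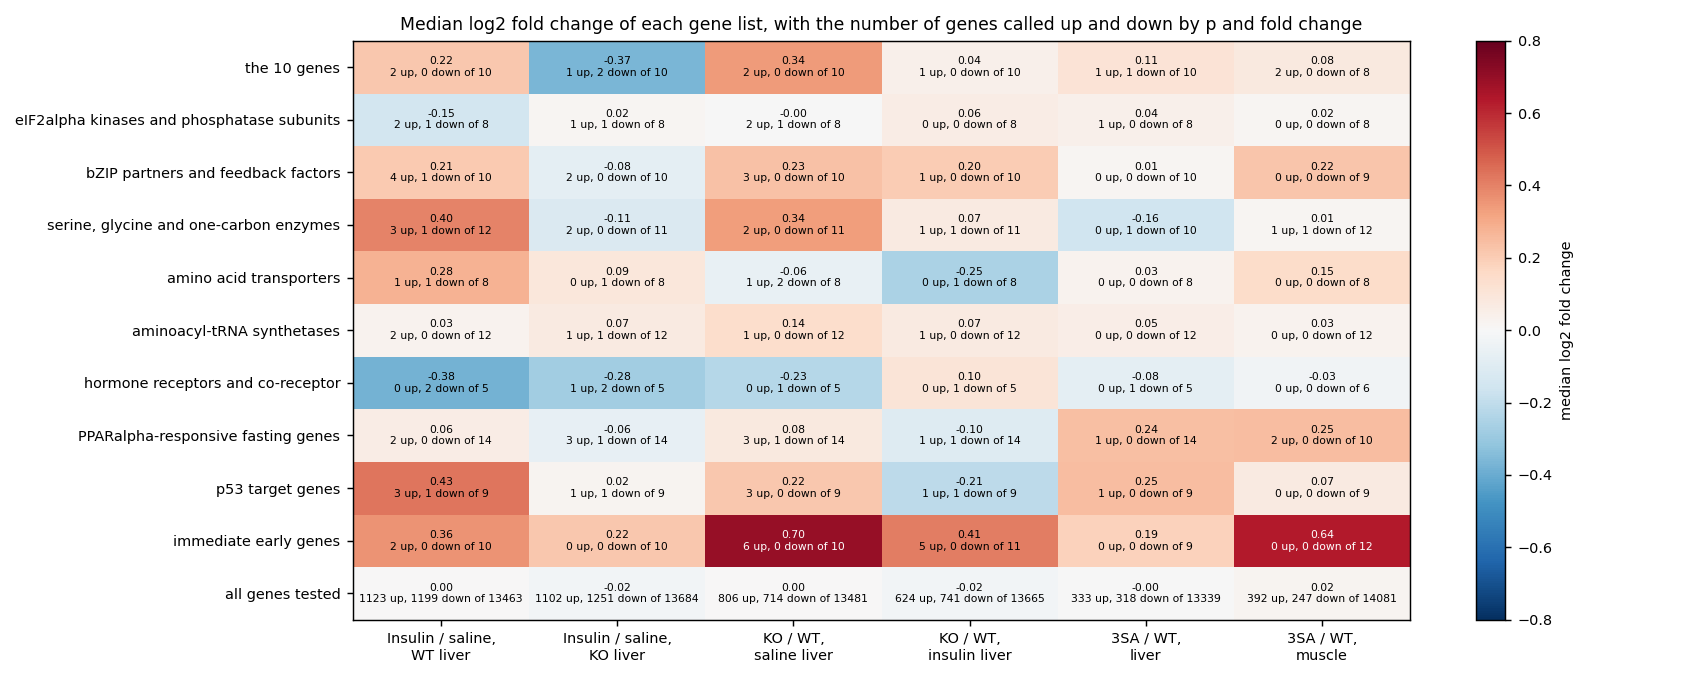
Median log2 fold change of each gene list (rows) in 6 comparisons (columns), with the number of genes called higher and lower by the unadjusted criterion among those tested; the last row holds all genes tested. The 10 genes have medians from -0.37 to 0.34, and immediate early genes reach 0.70 in KO livers on saline.

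Between the genotypes on saline, 26 of the 86 genes tested in the 9 lists were called (30.2%), against 11.3% of all genes. On insulin this was 15 of 87 (17.2%), against 9.99% of all genes. Since the lists were chosen with earlier results known, nothing is read from these shares being larger. Of 11 immediate early genes tested on insulin, 5 were called higher in KO livers and 0 lower. On saline 6 of 10 were called higher in KO livers and 0 lower, with a median of 0.70 against 0.00 for all genes. The largest change was that of Fos, at 1.94 CPM or more in KO replicates 1, 3 and 4, 0.485 CPM in KO replicate 2 and 0.337 to 0.763 CPM in WT livers (2.31, edgeR adjusted p = 0.189). Egr1 was at 58.8, 12.2, 145 and 47.8 CPM in KO livers and 27.1, 15.8, 20.4 and 17.0 CPM in WT livers (1.72, adjusted p = 0.246). Junb was at 110, 19.6, 70.0 and 52.4 CPM in KO livers and 16.3 to 21.9 CPM in WT livers (1.73, adjusted p = 0.161). In these 3 genes KO replicate 2 was not above all the WT livers and the other 3 KO livers were, and KO replicate 2 also had the lowest Chac1 and Fgf21 of its group. Atf3, itself an immediate early gene, did not follow (0.34, SE 0.46, adjusted p = 0.821). Klb was lower in KO livers on saline, at 34.2, 54.5, 39.5 and 35.4 CPM against 62.4, 55.6, 64.1 and 65.2 CPM in WT livers. The groups did not overlap, with a log2 fold change of -0.60 (SE 0.15, adjusted p = 0.183), and on insulin it was -0.61 (SE 0.21, adjusted p = 0.353).

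In ERRα3SA livers 5 of the 84 genes tested in these 9 lists were called, or 5.95%, against 4.88% of all genes. The eIF2α kinase gene Eif2ak2 was higher with no overlap (0.48, adjusted p = 0.493), as was Cdkn1a (1.07, adjusted p = 0.528), and Pdk4 was higher with overlap (0.87, adjusted p = 0.639). Got1 (-0.68, adjusted p = 0.597) and Fgfr3 (-0.36, adjusted p = 0.564) were lower, and 0 of the bZIP partners, amino acid transporters and aminoacyl-tRNA synthetases were called. All 14 PPARα-responsive genes had positive log2 fold changes in ERRα3SA livers, with a median of 0.24 against 0.00 for all genes, and 1 of them was called. Their sums overlapped, at 7084, 8313, 10513 and 5156 CPM in ERRα3SA livers and 7449, 7314, 6195 and 6479 CPM in WT livers, with ERRα3SA replicate 4 below every WT liver. In ERRα3SA muscle 12 of 12 immediate early genes had positive changes and 0 were called, with a median of 0.64 against 0.02 for all genes. Without replicate 4, 5 of the 12 were positive and the median was -0.09.

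The 10 genes did not vary as a block over livers. Over the 15 livers of the insulin experiment, 28 of the 45 pairs had a positive Pearson r of log2 CPM and 17 a negative r, with a median of 0.131. The highest was that of Trib3 with Psat1 (r = 0.665, Spearman rho = 0.532), which was 0.501 without KO saline replicate 3. Fgf21 and Gdf15 had r = 0.646 (rho = 0.446) and 0.560 without that sample, and the lowest pair was Fgf21 with Asns (r = -0.574, rho = -0.539), which was -0.805 without it. Within groups the highest pair of these livers was Ddit3 with Gdf15 (r = 0.823) and the lowest Fgf21 with Asns (r = -0.709). Over the 8 livers of the ERRα3SA experiment the median r was -0.07. There Atf4 with Chac1 was the highest pair (r = 0.786, rho = 0.762) and Chac1 with Gdf15 the lowest (r = -0.828, rho = -0.714). Within groups these 2 pairs had r = 0.665 and -0.709, the highest was Atf4 with Asns (r = 0.944) and the lowest Atf4 with Trib3 (r = -0.763). Without the 2 farthest samples Chac1 with Gdf15 had r = -0.409. These livers share tables and groups, and the values are descriptions.

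Genes outside the list with the pattern most like Fgf21 over the 15 livers, among 13245 genes, were Uox (r = 0.927), Zfp229 (r = 0.855), Slc35a5 (r = 0.854), Cebpg (r = 0.845), which encodes a bZIP partner of ATF4, and Pter (r = 0.834). For Gdf15 they were Col4a3bp (r = 0.878), Krit1 (r = 0.865), Zcchc8 (r = 0.865), Cfhr3 (r = 0.853) and Slf2 (r = 0.850). For Trib3 they were Haus3 (r = 0.812), Usp21 (r = 0.802), Mindy4 (r = 0.802), Ube2r2 (r = 0.773) and Senp8 (r = 0.769). Over the 8 livers of the ERRα3SA experiment, among 12150 genes, the most alike were Gins2 for Fgf21 (r = 0.955), Sh3kbp1 for Gdf15 (r = 0.963) and Pdpr for Trib3 (r = 0.982), and none of the 5 most alike genes for any of the 3 was shared between the experiments. With so many genes and so few livers, high values of r are reached by many genes, and nothing is read from them about shared control.

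Ddit3 carries a limit of its own. Its exons (ENSMUSG00000025408, chr10:127290774-127296288, plus strand) are overlapped over 186 bases, 20.9% of their length, by exons of Mars and Gm4189 on the opposite strand and by another identifier of the same symbol, which had 0 counts. The sources used here do not state a strand setting for the counting, so reads of Ddit3 and Mars cannot be told apart there. The other 9 genes had no exonic overlap with another gene.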

How the data were processed

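Raw counts of reads per gene were deposited by the authors. The submitters' notes name STAR and mm10, and no strand setting is given in the sources used here. Symbols and exons came from GENCODE vM21, and of identifiers sharing a symbol the one with the most counts was used. edgeR 4.0.16 in R 4.3.3 (filterByExpr, TMM, quasi-likelihood test, Benjamini-Hochberg adjustment) was fitted to the groups of each comparison, with a prior count of 2 for log2 CPM. Only some of the called genes of the lists are named, by no fixed rule, and their counts cover each list as a whole. The 10 genes and the lists were chosen with earlier results of these data known. Same-numbered samples were not alike across groups (mean r -0.0575 to 0.135), so they were not paired. No samples were merged, as the most similar of 45 replicate pairs differed by 6.30 in chi-square over its degrees of freedom. 0 sample columns were unused. DESeq2 1.42.0, the tool of the study's own analysis in another version, served as an alternative test.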

Additional observations from a re-analysis of the deposited data

Results flagged for a closer look

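Among 68 combinations of a gene of the list and a group of 4 samples, 4 had a sample further from the others than Dixon's limit allows, and chance alone gives about 1 in 20. Atf4 in ERRα3SA liver replicate 4 was high at 131 CPM. Sesn2 in the same liver was low at 5.78 CPM, and its 5 hepatocyte markers summed to 56582 CPM, the lowest of the livers of that experiment. Ddit3 in ERRα3SA muscle replicate 1, the sample with 19.3% of its counts on mitochondrial genes, was low at 4.61 CPM. Psat1 in WT insulin liver replicate 2 was high at 1.56 CPM.

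Effects differed between groups by the unadjusted criterion for 3 genes. The insulin effect was larger in WT than in KO livers for Chac1, by 2.39 on the log2 scale, and smaller for Sesn2, at -0.76. The ERRα3SA effect on Atf3 was larger in muscle than in liver by 2.53, a difference that rested on muscle replicate 4. After adjustment by edgeR none of these 3 passed.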

How the results depend on the processing

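Counts of genes are given below as (genes of the list) or (all genes), by the unadjusted criterion or at an adjusted p under 0.05.

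With DESeq2, adjusted counts in the insulin effect were 1 gene of the list and 893 of all genes in WT livers and 2 and 956 in KO livers. They were 2 and 214 for the KO effect on saline, 228 of all genes for the KO effect on insulin and 20 for the genotype by insulin interaction. For ERRα3SA they were 36 in liver, 41 in muscle and 23 for the tissue interaction.

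With no filter on low counts, adjusted counts were 1 gene of the list and 458 of all genes for insulin in WT livers, 2 genes of the list and 640 of all genes for insulin in KO livers, 1 and 30 for the KO effect on saline, 31 of all genes for the KO effect on insulin, 2 for ERRα3SA liver and 1 for the tissue interaction. By the unadjusted criterion 1050 genes were called in ERRα3SA liver and 1071 in muscle.

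With all 4 groups of a table fitted together, adjusted counts were 1 gene of the list and 766 of all genes for insulin in WT livers, 262 of all genes in KO livers, 1 gene of the list and 12 of all genes for the KO effect on saline and 96 of all genes for the KO effect on insulin. By the unadjusted criterion 0 genes of the list and 525 of all genes were called in ERRα3SA liver, and 1 of the list in muscle, where 1013 of all genes were called and 2 passed adjustment. The calls that ended were Gdf15 for insulin in KO livers (-1.47), Chac1 (-0.86) and Gdf15 (0.70) in ERRα3SA liver and Asns in muscle (0.91).

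With a replicate block, 1 gene of the list and 407 of all genes passed adjustment for insulin in WT livers, and 1 and 1246 were called in the genotype by insulin interaction. For ERRα3SA, 0 genes of the list and 334 of all genes were called in muscle, and 0 and 751 in the tissue interaction. The calls that ended were Gdf15 for insulin in KO livers (-0.52), Sesn2 in the genotype by insulin interaction (-0.68), Atf3 (0.94) and Asns (0.84) in muscle and Atf3 in the tissue interaction (1.97).

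Leaving out each sample in turn, the insulin effect in WT livers had 1 to 3 genes of the list called, 0 to 1 after adjustment, and 105 to 409 of all genes after adjustment. In KO livers 0 to 2 genes of the list and 42 to 608 of all genes passed adjustment. For the KO effect on saline these were 0 to 1 and 2 to 47. For the KO effect on insulin 0 to 2 genes of the list and 818 to 1778 of all genes were called, with 3 to 48 after adjustment. The genotype by insulin interaction had 1 to 3 genes of the list called and ERRα3SA liver 1 to 4. ERRα3SA muscle had 0 to 2 called, with 378 to 2506 of all genes called and 0 to 464 adjusted. The tissue interaction had 0 to 2 called, with 710 to 2766 and 0 to 369.

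RLE size factors left every count of genes of the list as it was, while counts of all genes changed, for example from 2322 to 2328 called for insulin in WT livers and from 639 to 659 in ERRα3SA muscle. Leaving out mitochondrial genes, run only for the 3 comparisons with muscle, also left the counts of genes of the list as they were, with 634 of all genes called in ERRα3SA muscle. Of 15 calls of a gene of the list outside the comparison of tissues, 7 kept the call whichever sample was left out, 8 lost it at least with some sample, and 0 changed direction. All 9 calls between WT liver and WT muscle were kept.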

Other observations

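Other cell types were read through their markers in the 15 livers of the insulin experiment. Endothelial markers summed to 85.0 to 192 CPM, stellate and fibroblast markers to 105 to 148 CPM, immune and Kupffer markers to 97.3 to 176 CPM, cholangiocyte markers to 4.94 to 9.38 CPM, erythroid markers to 146 to 433 CPM and adipocyte markers to 0.110 to 2.06 CPM. WT insulin replicate 2 had the lowest endothelial and the highest immune sum, and it also had the highest Atf4, Chac1 and Trib3 of its group. The part of these transcripts in those levels was not tested.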
